A study of Mus musculus with 292 samples.

Results

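Phase II conjugation enzymes attach a polar group to drugs, hormones, bile pigments and dietary chemicals, and 43 genes of these families were followed over the day in mouse liver and in 3 parts of the brain. The members were chosen by name and level. They are the genes whose mouse symbol begins with Ugt1, Ugt2, Ugt3, Gsta, Gstk, Gstm, Gsto, Gstp, Gstt, Gstz or Sult, apart from pseudogenes, and whose mean in the liver libraries was at least 0.5 CPM (the count scaled to a common library total). Of 48795 gene identifiers in the tables, 63 fitted the names and 43 passed the level. Just inside the limit lay Ugt1a10 at 0.532 CPM and Ugt1a7c at 0.561 CPM, and just outside lay Sult1e1 at 0.150 CPM and Gsto2 at 0.140 CPM. The rule itself used no difference between times or tissues, but it was set with earlier results of these data known.

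The series holds messenger RNA libraries of male wild-type mice of the strain C57BL/6J at 26 weeks of age, with no treatment named in the labels, and each library of a tissue came from its own mouse. Liver, hypothalamus, and cortex and striatum of the right hemisphere were taken every 3 h over 36 h, which gives 8 groups by zeitgeber time (ZT, conventionally counted in hours from lights-on). Liver gave 77 libraries, cortex 78, striatum 60 and hypothalamus 77, from 79 mice by label, 58 of which gave all 4 tissues. The mouse label of striatum ZT9 replicate 8 is in no other tissue. That label lacks a letter of one that the other tissues have at the same time, so both may be the same mouse. A liver group held 6 to 12 libraries, and a striatum group as few as 2 at ZT15 and 4 at ZT18.

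The families differ in what they transfer. UDP-glucuronosyltransferases (the Ugt genes) transfer glucuronic acid from UDP-glucuronic acid in the endoplasmic reticulum, glutathione S-transferases (the Gst genes) add glutathione to electrophiles, and sulfotransferases (the Sult genes) transfer sulfate from the donor PAPS in the cytosol. Hepatocytes carry out most of this work in the body, and the products leave in bile or urine through transporters. In mouse liver, clock-controlled PAR bZIP factors such as Dbp, Tef and Hlf, and nuclear receptors such as Nr1i2 and Nr1i3, are known to act on genes of drug metabolism.

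The bases before the start sites of 4 members are shown because these genes were called rhythmic and reached their fitted peaks at different times of day. Gstm4 and Gstm7 peaked at ZT3.98 and ZT2.89, Sult1d1 at ZT14.5 and Gsta3 at ZT18.9. The sequences are RefSeq promoter windows on GRCm38.p6, written 5′ to 3′ along the gene and ending at or before the first base of the gene model, and capitals mark the matches to 7 short motifs on either strand.
Gstm4 (chr3:108044895-108045109, minus strand): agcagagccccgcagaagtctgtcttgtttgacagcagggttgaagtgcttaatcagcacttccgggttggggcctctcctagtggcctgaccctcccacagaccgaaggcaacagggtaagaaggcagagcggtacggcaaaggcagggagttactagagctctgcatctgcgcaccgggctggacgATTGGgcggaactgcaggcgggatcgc
Gstm7 (chr3:107931818-107932067, minus strand): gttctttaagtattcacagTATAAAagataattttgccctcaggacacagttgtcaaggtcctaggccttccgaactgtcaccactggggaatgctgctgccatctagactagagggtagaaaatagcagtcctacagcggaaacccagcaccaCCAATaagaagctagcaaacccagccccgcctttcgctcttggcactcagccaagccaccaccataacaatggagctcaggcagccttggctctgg
Sult1d1 (chr5:87569028-87569256, minus strand): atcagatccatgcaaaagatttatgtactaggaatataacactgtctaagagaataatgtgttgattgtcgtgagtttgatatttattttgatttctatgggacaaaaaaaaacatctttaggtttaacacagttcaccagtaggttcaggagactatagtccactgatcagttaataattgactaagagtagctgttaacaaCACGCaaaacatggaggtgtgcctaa
Gsta3 (chr1:21240335-21240584, plus strand): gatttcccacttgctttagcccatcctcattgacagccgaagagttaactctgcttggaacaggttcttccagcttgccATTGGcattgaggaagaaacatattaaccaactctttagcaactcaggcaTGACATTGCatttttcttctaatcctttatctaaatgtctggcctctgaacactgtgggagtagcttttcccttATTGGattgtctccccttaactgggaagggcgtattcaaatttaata

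The motifs were searched in the 250 bases before the start of 47 RefSeq windows that 38 of the 43 members have, and in all 32851 windows of the table. The E-box CACGTG was in 0 of the 47 member windows and in 6.02% of all windows. The D-box letters TTATGTAA or TTACGTAA were in 1 member window, that of Ugt2b1, and in 0.932% of all windows, and the ROR letters TAGGTCA or TGGGTCA were in 2, those of Sult1b1 and Sult2a8, and in 5.38% of all. The antioxidant element TGACNNNGC lay before Gsta3, Gstm5 and Gstm7, which is 6.38% of member windows against 10.2% of all. In Gsta3 it reads TGACATTGC. The xenobiotic element GCGTG was in 19.1% of member windows and 28.2% of all, the CCAAT box in 48.9% and 33.8%, and TATAAA in 12.8% and 12.4%. A Gstm7 window that holds the antioxidant letters is another start site of that gene and is not the one printed. These are matches of letters in short windows, and where they are absent the factor may still act elsewhere.

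Libraries that stand apart touch some of the values. The liver library ZT18 replicate 4 was left out of every liver value other than the choice of members, since 1 gene, Gm42418, took 62.3% of its counts against 0.346% to 4.44% in the other 76. The smallest of the 76 kept had 27.5 M (mega) counts. In liver ZT6 replicate 7, gene models of 4000 or more bases were low relative to those of 1000 or fewer: the difference of their median log2 deviations, called the length index here, was -0.964 there, -0.448 in ZT15 replicate 3 and -0.318 in ZT21 replicate 2. ZT6 replicate 7 was kept. Where a 24 h call or the 1.5-fold mark in liver changed without it, both values are given. The liver libraries looked like liver: 8 hepatocyte markers summed to 93169 to 137204 CPM, and 4 of 4 kidney and 3 of 4 pancreas markers had a median of 0. The remaining pancreas marker, Cela2a, was called rhythmic in liver (3.27-fold at ZT7.55, adjusted p = 1.04e-08 by edgeR), while the 4 together summed to a median of 0.365 CPM. In bulk tissue, fewer cells of a type and less RNA per cell cannot be told apart.

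In liver, 25 of the 43 members were called rhythmic by edgeR's quasi-likelihood test of a 24 h cosine (Benjamini-Hochberg adjusted p under 0.05 over all genes). That is 58.1% of the members, beside 74.8% of all 16258 genes tested. The fitted ratio of peak to trough was at least 1.5-fold in 13 members, 30.2%, beside 27.9% of all genes. Without ZT6 replicate 7, Gstm2, Gstm6 and Sult5a1 fell below 1.5-fold and Gsta3 rose above it. The median fitted log2 ratio was 0.38 over the members and 0.38 over all genes tested. The share of members called was thus below that of all genes, and the share at 1.5-fold was close to it. The members differed from one another in size and time: called ratios ran from 1.22-fold for Gsto1 to 3.08-fold for Sult1c2. Of the called peaks, 7 fell from ZT0 to ZT6, 9 from ZT6 to ZT12, 8 from ZT12 to ZT18, and 1, that of Gsta3, from ZT18 to ZT24. For all called genes the shares in these windows were 26.0%, 26.3%, 22.6% and 25.0%.

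**Figure D1:**
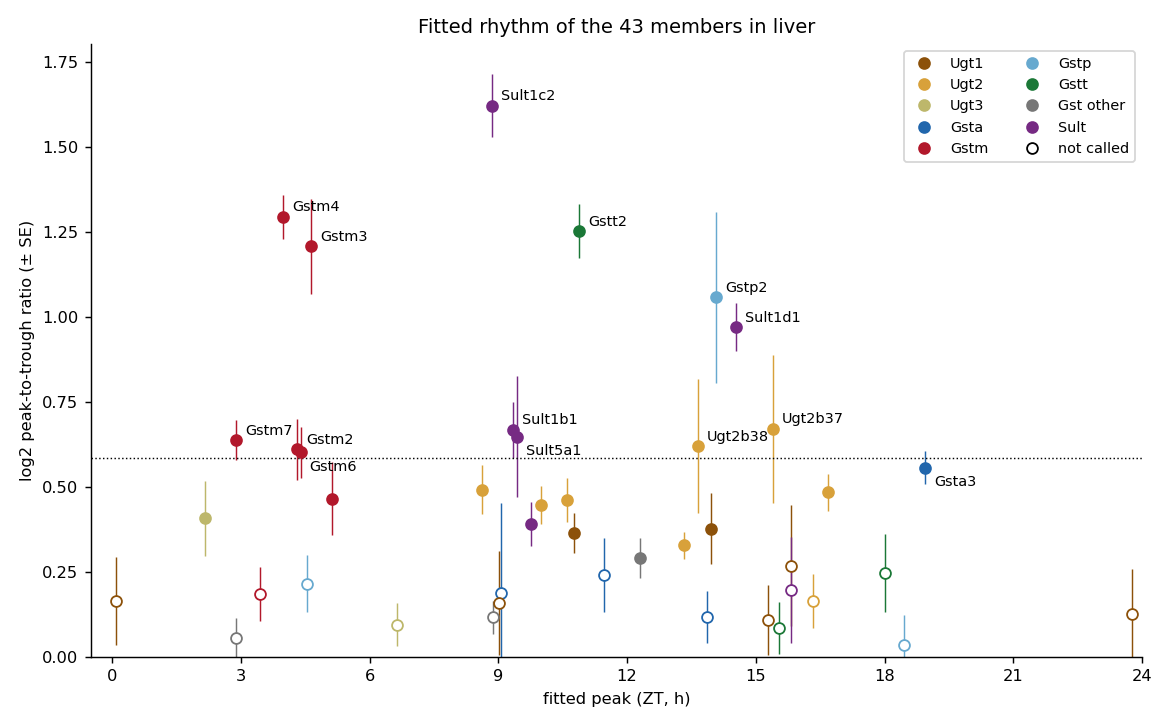
Fitted log2 peak-to-trough ratio (± SE) of each of the 43 members in liver against the fitted peak in hours of ZT, coloured by family. Filled points are called, the dotted line is a 1.5-fold ratio; the called Gstm genes lie between ZT2.89 and ZT5.12 and the called Sult genes between ZT8.84 and ZT14.5.

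The mu-class glutathione transferases peaked close together. Of 7 Gstm members, 6 were called, beside 74.8% of all genes, and all 6 peaked within ZT2.89 to ZT5.12. A ratio of 1.5-fold or more was reached by 5 of them, beside 27.9% of all genes. The genes lie side by side on chromosome 3 (chr3:107895821-108044894, GRCm38), in the order Gstm5, Gstm7, Gstm6, Gstm3, Gstm2, Gstm1 and Gstm4. The 6 called genes are all on the minus strand. Gstm5, at the end of the row and on the plus strand, had a ratio of 1.14-fold and a fitted peak at ZT3.45, within that range. Its adjusted p was 0.0929 by edgeR, and Gstm5 was called with the length index as a covariate. Of its exonic bases 13.9% overlap 4933431E20Rik on the other strand, so reads of the 2 cannot be told apart there unless strand was used in counting. The enzymes of this class conjugate epoxides and other electrophiles.

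Gstm4 had the largest ratio of the 7. Its lowest, median and highest library were 61.8, 75.0 and 93.1 CPM at ZT3 (n = 12) and 18.4, 28.2 and 30.7 CPM at ZT15 (n = 6). No ZT3 library overlapped any ZT15 library. The fitted log2 ratio was 1.29 ± 0.06 (SE), or 2.45-fold, with a peak at ZT3.98 and an adjusted p of 1.67e-28 by edgeR. Means fell from 75.5 ± 8.29 CPM (SD, n = 12) at ZT3 to 59.0 ± 4.14 (n = 11) at ZT9 and 40.9 ± 5.33 (n = 12) at ZT12, and were 47.2 ± 4.88 (n = 6) at ZT21. Levels were thus high from ZT0 to ZT6 and low around ZT15.

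Gstm3 ran from 37.0 to 107 CPM at ZT6, median 49.2, and from 15.9 to 33.1 CPM at ZT15, median 19.1. The groups did not overlap, but the libraries of ZT6 were widely spread. Its log2 ratio was 1.21 ± 0.14, or 2.31-fold (adjusted p = 6.18e-11 by edgeR), and 1.07 ± 0.12 without ZT6 replicate 7. Gstm7 ran from 57.3 to 83.1 CPM at ZT0, median 71.0, and from 42.6 to 50.3 CPM at ZT15, median 45.1. Here too every library at ZT0 lay above every library at ZT15, with a log2 ratio of 0.64 ± 0.06 and an adjusted p of 4.56e-15 by edgeR. Gstm2 (1.53-fold, ZT4.31) was highest at ZT6 and Gstm6 (1.52-fold, ZT4.39) at ZT3, both were lowest at ZT15, and both fell below 1.5-fold, to 1.45-fold and 1.43-fold, without ZT6 replicate 7.

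Gstm1, the most abundant of the family per length, varied widely between libraries. It ran from 816 to 2027 CPM at ZT6, median 887, and from 566 to 892 CPM at ZT15, median 643. The highest value is ZT6 replicate 7, and the other 11 libraries of ZT6 reached 1336 CPM. The log2 ratio was 0.46 ± 0.11 (adjusted p = 0.00044 by edgeR) and 0.32 ± 0.07 without that library, still called. Counts of Gstm1 and Gstm2 are uncertain to the extent that reads are shared with the pseudogene Gstm2-ps1 on chromosome 5, which itself had 170 CPM in liver. Markers of other cells moved at these times: the summed level of 6 Kupffer cell and macrophage markers had a median of 178 CPM at ZT3 and 107 CPM at ZT9 and ran from 62.9 to 480 CPM over libraries, with 5 of 6 called. The summed cholangiocyte markers had medians of 18.5 CPM at ZT0 and 7.75 CPM at ZT12, with 4 of 5 called and a range of 5.30 to 21.4 CPM. The 4 lymphocyte markers summed to 0.764 to 5.98 CPM, with medians of 2.97 CPM at ZT3 and 1.33 CPM at ZT18. Of these 2 were called, Cd79a at 3.62-fold and ZT5.05 and Ms4a1 at 2.92-fold and ZT4.61. Of the endothelial and of the stellate markers 4 of 5 each were called, with ratios up to 1.29-fold. These marker counts stand beside 74.8% of all genes called in liver, and most are close to that share. The part of these cells in the Gstm result was not tested.

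**Figure D2:**
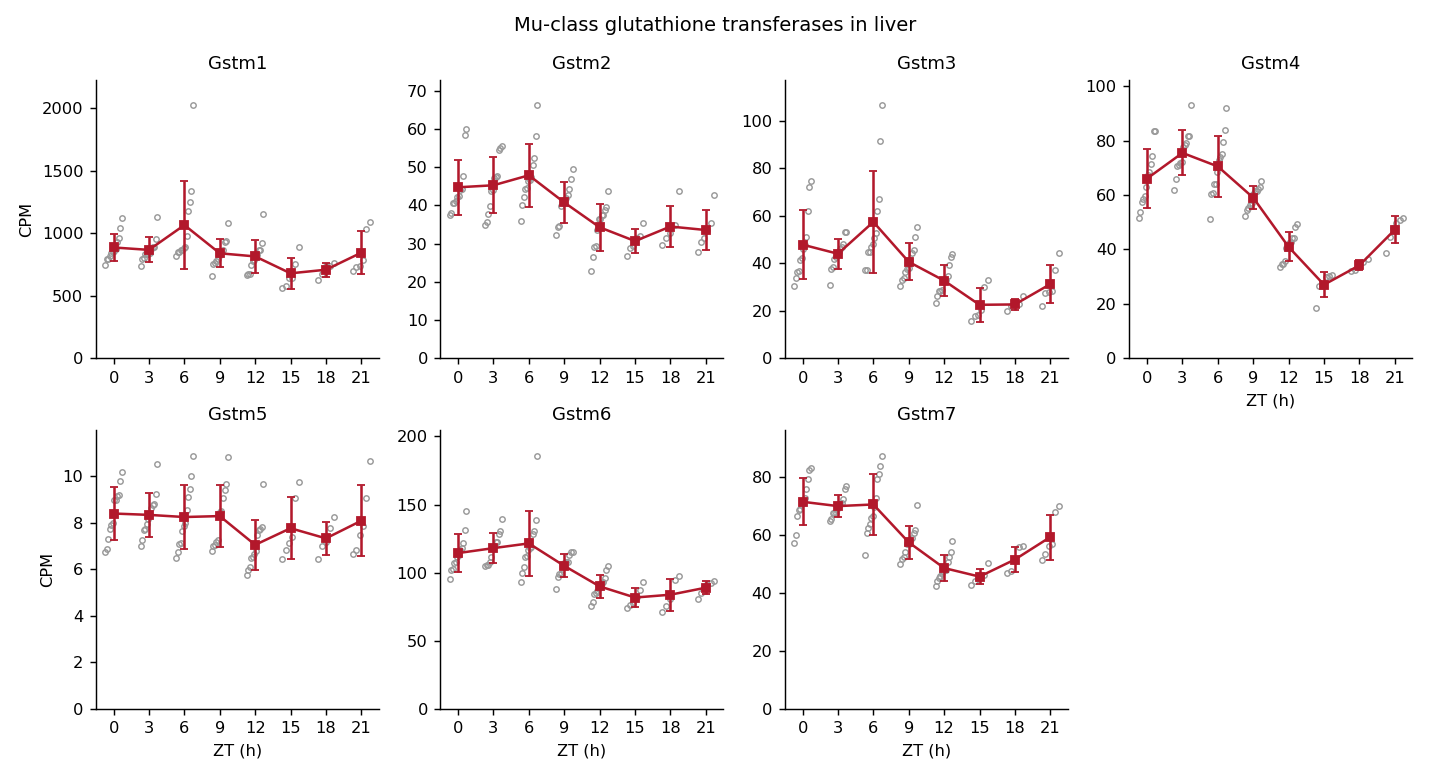
CPM of the 7 mu-class genes in the 76 liver libraries against ZT in hours, 1 panel a gene, each axis starting at 0. Circles are libraries, spread sideways in order of value, and squares with bars are means ± SD; Gstm4 falls from a mean of 75.5 CPM at ZT3 to 27.0 CPM at ZT15, while Gstm5 stays between group means of 7.05 and 8.40 CPM.

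Among the sulfotransferases 5 of 6 were called, beside 74.8% of all genes, with peaks from ZT8.84 to ZT14.5. Sult1c2 had the largest ratio of all 43 members. It ran from 7.47 to 13.2 CPM at ZT9 (median 9.84, n = 11), and the 5 libraries at ZT18 gave 3.695, 2.60, 3.83, 2.33 and 2.07 CPM. Every ZT9 library lay above every ZT18 library. The log2 ratio was 1.62 ± 0.09, or 3.08-fold, with a peak at ZT8.84 (adjusted p = 2.01e-26 by edgeR). Its level is low, at 3.11 ± 1.32 FPKM (SD, n = 76). FPKM, the count scaled to the library total and the length of the gene model, is used here wherever levels of different genes are compared.

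Sult1d1, which in mouse sulfates dopamine and other catecholamines, peaked at ZT14.5. It ran from 159 to 231 CPM at ZT15 (median 177, n = 6) and from 67.2 to 112 CPM at ZT0 (median 86.6, n = 12). These groups did not overlap, and the log2 ratio was 0.97 ± 0.07 (adjusted p = 9.25e-21 by edgeR). Sult1b1, the nearest member on chromosome 5 and a sulfotransferase of phenols and thyroid hormone, peaked at ZT9.34 instead. It ran from 33.5 to 48.7 CPM at ZT9, median 44.0, and from 16.7 to 29.4 CPM at ZT21, median 23.7, with a log2 ratio of 0.67 ± 0.08 (adjusted p = 2.65e-10 by edgeR). Both genes were rhythmic, with fitted peaks at different times. Sult2a8, which sulfates bile acids in mouse liver, is the most abundant sulfotransferase here at 278 ± 41.3 FPKM. It ran from 946 to 1171 CPM at ZT9 and from 563 to 963 CPM at ZT0, which overlap, with a ratio of 1.31-fold and a peak at ZT9.76 (adjusted p = 6.81e-07 by edgeR). Sult5a1 had a ratio of 1.57-fold at ZT9.43 but was scattered, from 6.19 to 30.7 CPM at ZT9 alone. ZT6 replicate 7 held 33.0 CPM of Sult5a1. Without that library the ratio was 1.47-fold, still called (adjusted p = 0.00565 by edgeR). With ZT as a factor Sult5a1 was not called. Sult2a7 was not called (1.15-fold, adjusted p = 0.475 by edgeR).

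The theta class held 1 strong rhythm among 3 genes. Gstt2 ran from 87.4 to 128 CPM at ZT9 (median 110, n = 11) and from 33.4 to 58.5 CPM at ZT0 (median 46.5, n = 12), with no overlap. Its log2 ratio was 1.25 ± 0.08, or 2.38-fold, with a peak at ZT10.9 (adjusted p = 6.81e-23 by edgeR). Gstt1 and Gstt3, which lie on the same strand within chr10:75774115-75837424, had ratios of 1.06-fold (adjusted p = 0.575 by edgeR) and 1.19-fold (adjusted p = 0.125 by edgeR). Without ZT6 replicate 7 both were called, at 1.13-fold and 1.24-fold with peaks at ZT17.1 and ZT18.1. Of the exonic bases of Gstt3, 13.6% are shared with Gm20441 on the same strand, so strand cannot tell reads of the 2 apart there. Theta enzymes act on small halogenated compounds and peroxides.

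In the alpha class, Gsta3 alone of 4 genes was called, beside 74.8% of all genes. Its enzyme in mouse conjugates the epoxide of aflatoxin B1. It ran from 1714 to 2357 CPM at ZT21 (median 2301, n = 6) and from 1305 to 1596 CPM at ZT6 (median 1473, n = 12), and the 5 libraries at ZT18 gave 2205, 2262, 2207, 2176 and 2227 CPM. Levels were high at ZT18 and ZT21 and low around ZT6. The log2 ratio was 0.56 ± 0.05, or 1.47-fold, with a peak at ZT18.9 (adjusted p = 3.96e-16 by edgeR), and 1.52-fold without ZT6 replicate 7. Gsta4, whose enzyme acts on 4-hydroxynonenal (adjusted p = 0.342), Gsta2 (adjusted p = 0.115) and Gsta1 (adjusted p = 0.783) were not called by edgeR. Gsta2, Gsta1 and Gsta4 lie on chromosome 9 and Gsta3 on chromosome 1.

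Gstp1, the pi-class enzyme and the member with the highest level in the authors' FPKM at 1060 ± 180 (SD, n = 76), had a ratio of 1.025-fold with an adjusted p of 0.926 by edgeR. That FPKM implies a length of 757 bases, where GENCODE M21 has 1548, so the rank of Gstp1 depends on the length taken. Its median was 871 CPM at ZT21 and 765 CPM at ZT18, with libraries of both groups overlapping. Reads of Gstp1 may be shared with the pseudogene Gstp-ps on chromosome 1, which had 435 CPM in liver. Gstp3 was not called (1.16-fold, adjusted p = 0.0542 by edgeR). Gstp2 was called at 2.08-fold with a peak at ZT14.1, at a mean of 1.20 ± 1.20 CPM (SD, n = 76). The library ZT12 replicate 6 held 10.7 CPM of it against 0.708 to 2.32 CPM in the other 11 of that time. Without that library the log2 ratio of Gstp2 fell from 1.06 ± 0.25 to 0.64 ± 0.20, or 1.56-fold, and remained called (adjusted p = 0.00891 by edgeR).

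Of the 3 remaining transferases, Gsto1, an omega-class thioltransferase, was called at 1.22-fold with a peak at ZT12.3 (adjusted p = 6.87e-05 by edgeR). Gstz1, which isomerises maleylacetoacetate in tyrosine breakdown, had a ratio of 1.08-fold (adjusted p = 0.0801 by edgeR). It ran from 769 to 856 CPM at ZT9 and from 699 to 803 CPM at ZT21. Of the bases of Gstz1, 12.2% lie opposite Pomt2 or Gm6566, with the same limit. Gstk1, the kappa-class enzyme of mitochondria and peroxisomes, had a ratio of 1.04-fold (adjusted p = 0.683 by edgeR). The highest and lowest groups of both genes overlapped.

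**Figure D3:**
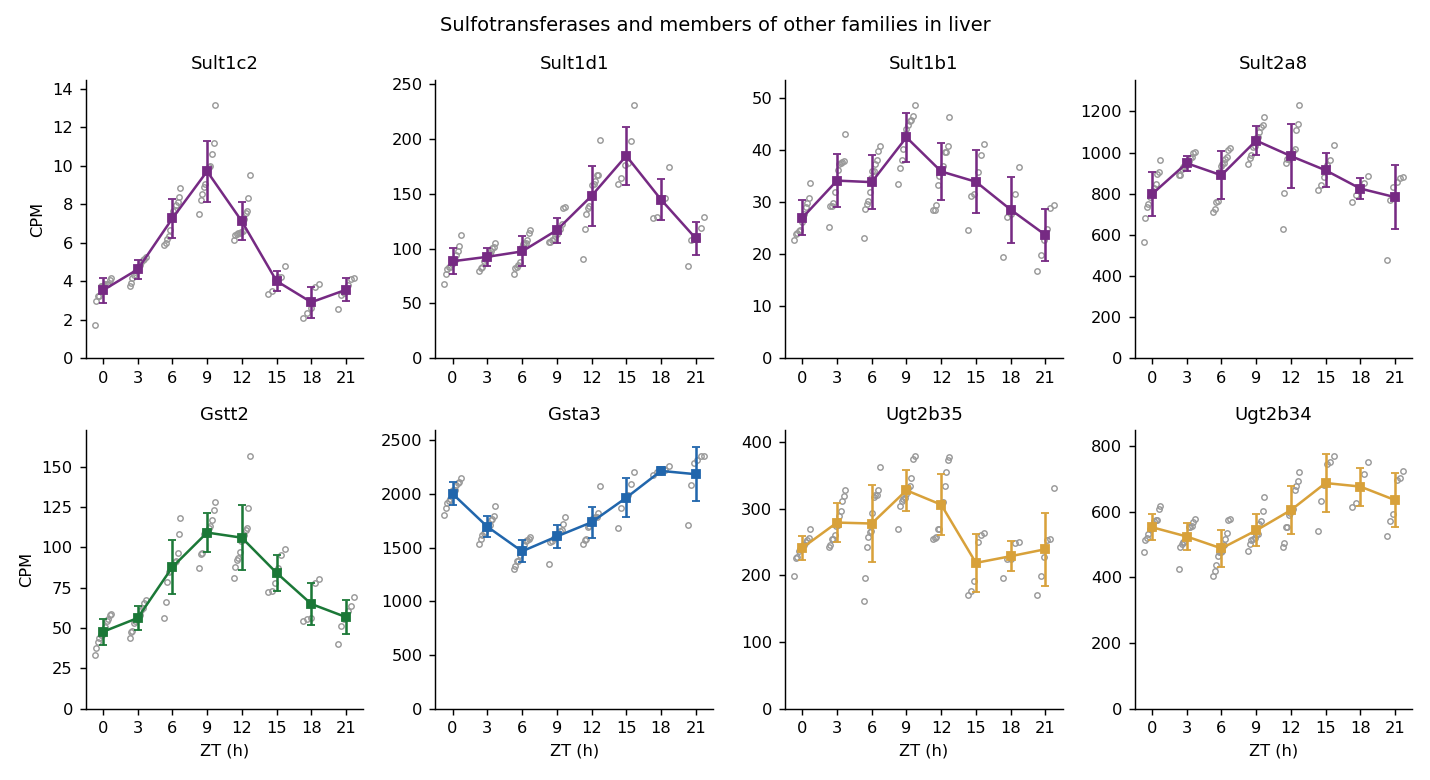
CPM of 4 sulfotransferases, Gstt2, Gsta3, Ugt2b35 and Ugt2b34 in the 76 liver libraries against ZT in hours, drawn with libraries as circles and means ± SD as squares. Sult1c2 is highest at ZT9 (median 9.84 CPM), Sult1d1 at ZT15 (median 177 CPM) and Gsta3 at ZT18 and ZT21, and it is lowest at ZT6 (median 1473 CPM).

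The Ugt2 glucuronosyltransferases, which act on steroids, bile acids and many drugs, were called in 7 of 8 cases, beside 74.8% of all genes, with ratios of 1.26-fold to 1.59-fold. Their peaks fell from ZT8.63 to ZT16.7. They lie together on chromosome 5 between 86889767 and 87424203, and Sult1b1 and Sult1d1 follow further along. Ugt2b35 was highest at ZT9 (270 to 379 CPM, median 323) and lowest at ZT15 (171 to 263 CPM, median 221), with no overlap. Its log2 ratio was 0.49 ± 0.07 at ZT8.63 (adjusted p = 3.98e-08 by edgeR). Ugt2b34, the first of these members along the chromosome, was highest at ZT15 instead (541 to 771 CPM, median 714) and lowest at ZT6 (404 to 578 CPM, median 479). Those groups overlapped in part, and its log2 ratio was 0.48 ± 0.05 at ZT16.7 (adjusted p = 4.4e-12 by edgeR). Members of the same gene row thus had peaks at ZT8.63 and at ZT16.7.

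Ugt2b5 and Ugt2b36, the most abundant of the family at 439 ± 69.6 and 343 ± 47.8 FPKM, were close in time. Ugt2b5 ran from 793 to 1002 CPM at ZT9 and from 607 to 795 CPM at ZT0, with a ratio of 1.38-fold at ZT10.6 (adjusted p = 1.54e-08 by edgeR). Ugt2b36 had a ratio of 1.36-fold at ZT9.99 and Ugt2a3 of 1.26-fold at ZT13.3 (adjusted p = 3.73e-10 and 7.66e-11 by edgeR). The weakly expressed Ugt2b37 (1.59-fold, adjusted p = 0.0127 by edgeR) and Ugt2b38 (1.54-fold, adjusted p = 0.0115 by edgeR) had large ratios with large errors, and in the first cycle alone neither was called. Ugt2b1 had a ratio of 1.12-fold (adjusted p = 0.15 by edgeR) and was called at 1.17-fold without ZT6 replicate 7 (adjusted p = 0.0199 by edgeR).

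Of 7 Ugt1 genes only Ugt1a1 and Ugt1a6a were called, beside 74.8% of all genes. The Ugt1a genes are alternative first exons joined to common exons, so 50.3% to 60.6% of the exonic bases of each model are shared on the same strand within chr1:88055388-88220002. With the other strand counted too, 82.7% of the bases of Ugt1a1 and 64.3% of those of Ugt1a10 are shared, which matters unless strand was used in counting. How reads in the common exons were assigned is not given in the sources used here, and the values rest on the unshared part if such reads were left out. Ugt1a1, the enzyme of bilirubin glucuronidation, ran from 187 to 315 CPM at ZT12 (median 303) and from 201 to 287 CPM at ZT3 (median 241). The log2 ratio was 0.38 ± 0.10 with a peak at ZT13.9 (adjusted p = 0.00326 by edgeR). Ugt1a6a, an enzyme of planar phenols, had a log2 ratio of 0.36 ± 0.06 at ZT10.8 (adjusted p = 4.17e-07 by edgeR).

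The libraries with a low length index were also low in Ugt1 genes. ZT6 replicate 7 held 33.7 CPM of Ugt1a1 against 159 to 286 CPM in the other 11 of its time, and 5.65 CPM of Ugt1a6b against 35.5 to 55.8 CPM. ZT15 replicate 3 held 140 CPM of Ugt1a1 against 285 to 328 CPM in the other 5, and ZT21 replicate 2 held 144 CPM against 180 to 288 CPM. Ugt1a1 remained called without ZT6 replicate 7, at 0.35 ± 0.08, and with the length index as a covariate. Ugt1a6b, Ugt1a5, Ugt1a9, Ugt1a7c and Ugt1a10 were not called, with adjusted p from 0.349 to 0.665 by edgeR. With the length index as a covariate, Ugt1a6b and Ugt1a10 were called as well.

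The Ugt3 pair differed. Ugt3a1 ran from 50.5 to 69.7 CPM at ZT3 (median 57.8) and from 17.2 to 48.0 CPM at ZT15 (median 39.6), without overlap. Its ratio was 1.33-fold at ZT2.17 (adjusted p = 0.00308 by edgeR), and it was not called in the first cycle alone. The libraries with a low length index were low in Ugt3a1 too. ZT15 replicate 3 held the 17.2 CPM, against 34.5 to 48.0 CPM in the others of its time. ZT6 replicate 7 held 8.79 CPM against 35.4 to 60.9, and ZT21 replicate 2 held 21.8 CPM against 36.2 to 64.6. Ugt3a1 remained called without ZT6 replicate 7, at 1.36-fold, and with the length index as a covariate. Ugt3a2, at 116 ± 11.6 FPKM the more abundant of the pair, had a ratio of 1.07-fold (adjusted p = 0.354 by edgeR). The human proteins of this family use sugars other than glucuronic acid.

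A second, 12 h component was called in 3 of 43 members, beside 17.2% of all genes. These were Sult1c2 (1.35-fold, adjusted p = 0.000135), Gstm4 (1.16-fold, adjusted p = 0.0187) and Sult1d1 (1.175-fold, adjusted p = 0.0326), all by edgeR. Between the second and the first cycle, at the times sampled in both, 0 of 43 members differed by edgeR, beside 0.00% of all genes. At an unadjusted p under 0.05 there was 1 member, and with DESeq2 size factors in edgeR there were again 0. The smallest p was that of Ugt2b35, which was 1.07-fold higher in the second cycle (adjusted p = 0.7 by edgeR). Gsta4 and Gstm7 followed at 0.925-fold and 0.944-fold.

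The members together made up 10667 ± 547 CPM of the liver libraries (SD, n = 76), or 1.07% of counts. The Ugt2 family held 3467 ± 355 CPM, the alpha class 1912 ± 271, the mu class 1173 ± 250 and the sulfotransferases 1085 ± 161. In the authors' FPKM, Gstp1 came first, then Gstm1 (585 ± 136 FPKM), Gstz1 (463 ± 30.3), Ugt2b5 (439 ± 69.6) and Gsta3 (413 ± 62.4). Among the last 4, each neighbour in this order differed by less than the larger of the SDs. The FPKM of Gstp1 and Gstz1 imply lengths of 757 and 1665 bases, where GENCODE M21 has 1548 and 5088. The ranks of these 2 thus depend on the length taken. The lowest were Ugt1a10 (0.237 ± 0.0798 FPKM) and Ugt1a7c (0.13 ± 0.0388).

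In the brain 12 members reached 1 FPKM in cortex and 14 each in hypothalamus and striatum, against 39 in liver. The choice of members by their liver level fixes that liver holds more of them, so nothing is read from these counts. Genes of the same families that the choice left out include Sult4a1, at 0.0737 CPM in liver and 419, 268 and 295 CPM in cortex, striatum and hypothalamus, and Sult2b1, at 0.0576 CPM in liver and 3.25 to 7.40 CPM in the brain. Of the 43 members, those at 1 FPKM or more in the brain were glutathione transferases. Tables were scaled tissue by tissue, so levels of different tissues are set side by side without a test. In each brain tissue 21 members had a mean below 0.01 FPKM, among them both Ugt3 genes and 7 or all 8 of the Ugt2 genes. The brain means of Gstm5 lay above its liver mean, with 92.5 ± 15.9 FPKM in cortex (n = 78), 138 ± 32.4 in striatum (n = 60) and 118 ± 19.7 in hypothalamus (n = 77) against 6.26 ± 0.98 in liver. Every brain library of Gstm5, from 40.1 FPKM up, lay above the highest liver library at 8.52 FPKM. The mean of Gsta4 was 82.1 FPKM in liver, with 59.5 in hypothalamus, 51.0 in striatum and 26.1 in cortex.

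A few brain libraries held traces of liver-type members. Cortex ZT0 replicate 10 held 1.07 CPM of Ugt2b1, 0.937 CPM of Sult2a8 and 0.830 CPM of Ugt2b5, where the cortex means were 0.0137, 0.0160 and 0.0142 CPM. In striatum ZT9 replicate 9 Ugt2b1 stood at 0.543 CPM. Hypothalamus ZT21 replicate 6 held 0.867 CPM of Ugt2b5 and ZT0 replicate 12 held 0.743 CPM of Sult2a8. These genes did not pass the filter on low counts in brain, and no brain rhythm is given for them.

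**Figure D4:**
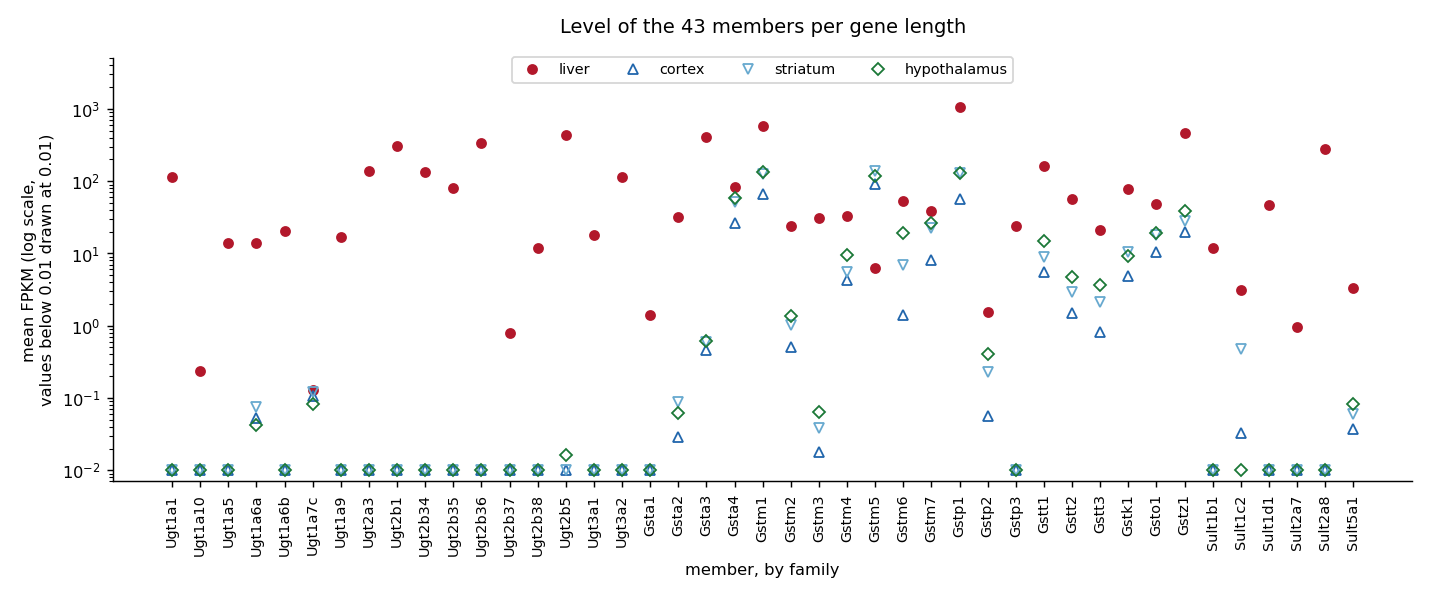
Mean FPKM of the 43 members in liver (filled circles), cortex, striatum and hypothalamus on a log axis, ordered by family, with means below 0.01 FPKM drawn at 0.01. Members were chosen by their liver level; Gstm5 has 92.5 to 138 FPKM in the 3 brain tissues and 6.26 FPKM in liver.

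The members were counted in each brain tissue beside all genes. In cortex 7 of 17 members tested were called, beside 43.7% of all genes, in hypothalamus 3 of 19, beside 24.3%, and in striatum 2 of 21, beside 5.70%. A ratio of 1.5-fold or more was reached by 1 member in cortex (7.98% of all genes), by 2 in striatum (3.09%) and by 0 in hypothalamus (4.59%).

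Markers of neighbouring tissue moved with ZT in the brain. In striatum all 3 cerebellar markers were called with peaks from ZT19.4 to ZT19.9, and they summed to 0.231 to 2820 CPM, the highest in ZT21 replicate 3. In hypothalamus 2 of 3 pituitary markers, Gh and Prl, were called with peaks at ZT4.34 and ZT4.36, and the 3 summed to 4.98 to 38863 CPM, the highest in ZT0 replicate 9. Ttr (3.84-fold) and the neuronal Slc17a7 (3.03-fold) were called there too. In cortex all 3 choroid plexus markers were called, and they summed to 1.81 to 4514 CPM, the highest in ZT0 replicate 1. Without these libraries and 1 more in each tissue, the same 7, 2 and 3 members were called in cortex, striatum and hypothalamus. The part of the tissue taken in the brain rhythms was otherwise not tested.

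Gstt2 was called in all 4 tissues, with peaks from ZT9.15 to ZT10.95. In cortex it ran from 1.90 to 3.33 CPM at ZT9 (median 2.60, n = 12) and from 1.11 to 1.95 CPM at ZT0 (median 1.49, n = 12). These groups overlapped only at their edges, and the ratio was 1.85-fold with a peak at ZT9.15 (adjusted p = 9.37e-14 by edgeR). In hypothalamus its medians were 7.65 CPM at ZT12 and 5.35 CPM at ZT18, with a ratio of 1.38-fold at ZT9.94 (adjusted p = 7.73e-06 by edgeR). In striatum they were 5.78 CPM at ZT12 and 2.73 CPM at ZT21, with a ratio of 1.63-fold at ZT10.95 (adjusted p = 0.00706 by edgeR). The striatum call was lost with ZT as a factor.

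Gstm4 kept a rhythm in the brain but not the time of the liver. In cortex its medians were 8.21 CPM at ZT12 and 6.09 CPM at ZT0, and in hypothalamus 18.1 CPM at ZT9 and 14.6 CPM at ZT0. The ratios were 1.33-fold at ZT9.31 (adjusted p = 7.03e-10 by edgeR) and 1.25-fold at ZT9.02 (adjusted p = 0.000184 by edgeR), where the liver peak was at ZT3.98. In striatum the ratio was 1.28-fold at ZT10.1 with an adjusted p of 0.0841 by edgeR. Testing whether the rhythm differed by tissue gave adjusted p of 2.34e-32 for liver against cortex, 1.3e-26 against hypothalamus and 2.52e-17 against striatum by edgeR. At ZT0, when the liver mean was 66.1 CPM, the median of Gstm4 was the lowest of the 8 times in cortex and in hypothalamus.

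**Figure D5:**
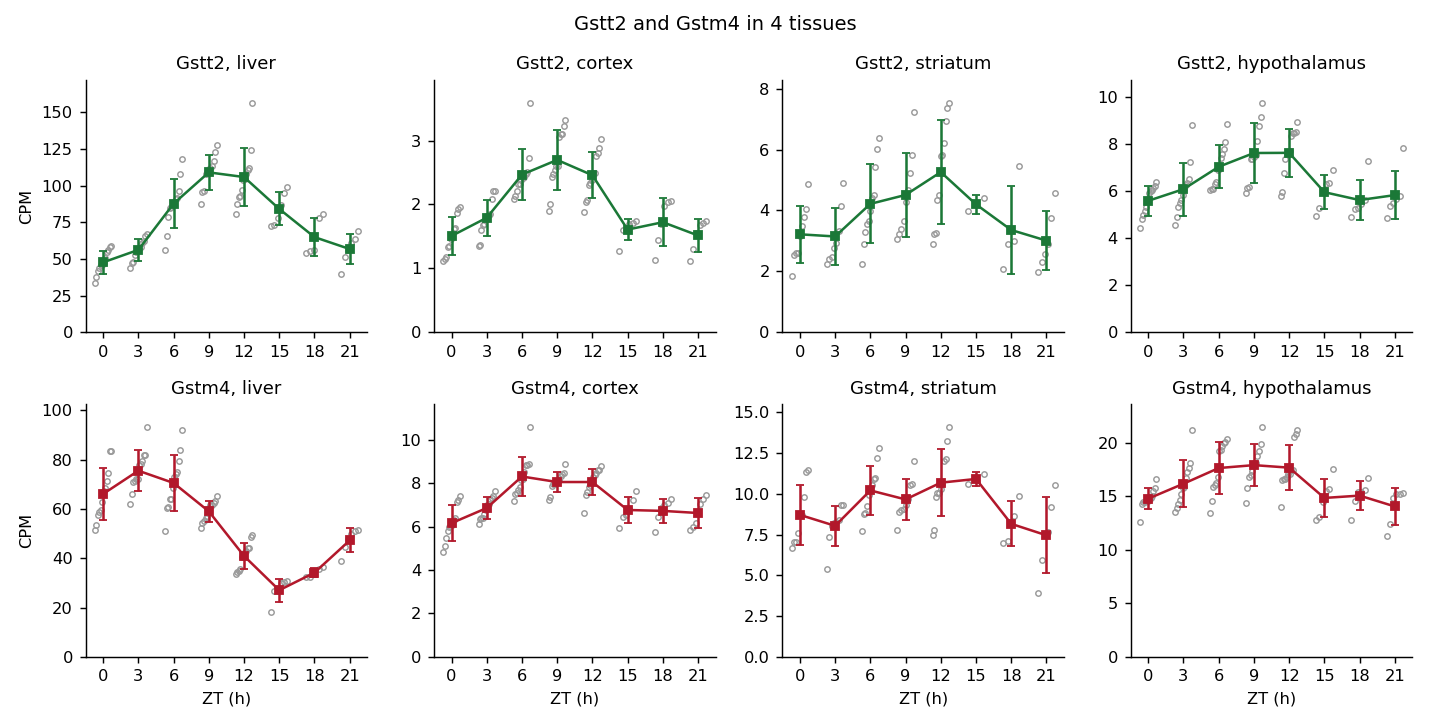
CPM of Gstt2 (top) and Gstm4 (bottom) in liver, cortex, striatum and hypothalamus against ZT in hours, each axis starting at 0, with libraries as circles and means ± SD as squares. Gstt2 is highest at ZT9 or ZT12 in each tissue, while Gstm4 is highest at ZT3 in liver (mean 75.5 CPM) and from ZT6 to ZT12 in cortex and hypothalamus.

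In cortex the other called members were Gstz1 (1.23-fold at ZT9.6, adjusted p = 7.11e-11), Gsto1 (1.17-fold at ZT10.9, adjusted p = 0.00102), Gstm7 (1.28-fold at ZT6.64, adjusted p = 0.00208), Gstt3 (1.23-fold, adjusted p = 0.0298) and Gsta3 (1.18-fold, adjusted p = 0.0339), all by edgeR. The cortex calls of Gstm7, Gstt3 and Gsta3 were lost with ZT as a factor. That of Gstt3 was also lost with the length index as a covariate and with the replicate number as a block. Gstz1 was called in cortex and not in liver, and its rhythm differed between the tissues (adjusted p = 0.00746 by edgeR). The liver fit of Gstz1 was 1.08-fold at ZT8.87 (adjusted p = 0.0801 by edgeR), and it was called in liver with the second cycle as a covariate. Ugt1a7c, at 0.0817 to 0.123 FPKM in the brain, was called in hypothalamus (1.48-fold at ZT8.34, adjusted p = 0.0125 by edgeR) and in striatum (1.98-fold at ZT7.42, adjusted p = 0.0448 by edgeR). The striatum call of Ugt1a7c was lost without ZT18 replicate 1, without replicate 2 and without replicate 4 of that time. In hypothalamus it was lost with ZT as a factor. The length index spread widely in the brain, from -1.34 to 0.859 in striatum, from -0.950 to 0.529 in hypothalamus and from -1.30 to 0.184 in cortex. With it as a covariate, 5 members were called in striatum and 6 in hypothalamus, Gsto1 and Gstz1 in both. In cortex 6 were called with it.

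The difference in rhythm between liver and a brain tissue was called in 6 of 17 members for cortex (65.3% of all genes), in 9 of 21 for striatum (42.8%) and in 7 of 19 for hypothalamus (61.4%). These 3 comparisons share the liver libraries. Gstm4, Gstm7, Gsta3 and Gstt2 were called in each. For Gstm7 the adjusted p was 1.39e-06 against cortex, 1.4e-06 against striatum and 4.32e-10 against hypothalamus by edgeR. For Gsta3, with its liver peak at ZT18.9, it was 1.75e-06, 1.09e-06 and 2.45e-09. For Gstt2, whose liver ratio was larger at a like time, it was 6e-05, 0.0214 and 9.07e-10. The striatum call of Gstt2 was lost when the mouse was a block in the fit, as were those of Gstm1 and Sult1c2.

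Genes that feed and follow conjugation were counted in liver on lists chosen with results of these data known, and each count stands beside the 74.8% of all genes called there. Most of the counts are near that share, and nothing particular to a list is read from them. All 6 genes of UDP-sugar supply were called, with Ugp2, which makes UDP-glucose, at 2.03-fold and a peak at ZT10.35, and Gusb, the lysosomal glucuronidase, at 1.37-fold and ZT16.7. Of 11 glutathione genes tested, 9 were called. Gclc, the catalytic subunit of the rate-limiting step of glutathione synthesis, reached 1.64-fold at ZT0.931, Ggct 1.85-fold at ZT23.2 and Gss, glutathione synthetase, 1.6-fold at ZT10.7. Successive enzymes of glutathione synthesis thus had different fitted times. Of 9 genes of PAPS supply 7 were matched and all 7 were called, among them Papss2, a PAPS synthase, at 1.43-fold and ZT11.3 and the PAPS transporter Slc35b2 at 1.61-fold and ZT9.25. Others of this list peaked at other times: Papss1 at 1.63-fold and ZT0.102, Suox at 1.51-fold and ZT0.933 and Bpnt1 at 1.31-fold and ZT21.2.

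Of 15 other conjugating enzymes 12 were called, including Inmt (1.9-fold, ZT12.7) and Hnmt, which methylates histamine (1.54-fold, ZT11.9). Of 12 transporters 10 were called, with the efflux pumps Abcc2 at 1.83-fold and ZT9.55 and Abcb1a at 2.85-fold and ZT12.5. Among the regulators 13 of 15 were called, with Nr1i3 at 2.62-fold and ZT13.6, Nr1i2 at 1.6-fold and ZT14.6 and Maff at 6.62-fold and ZT9.72. The 2 that were not called, named after their values were seen, were Nfe2l2 (1.09-fold, adjusted p = 0.266 by edgeR) and Keap1 (1.06-fold, adjusted p = 0.0734 by edgeR). All 6 PAR bZIP factors and clock repressors were called, among them Dbp at 134-fold and ZT9.67, Nr1d1 at 80.1-fold and ZT7.21 and Tef at 7.54-fold and ZT11.7. Of 7 genes of growth hormone signalling and sex bias 3 were called, and Bcl6, Cux2, Cish and Socs2 were not. In cortex and hypothalamus Dbp peaked at ZT11.5 and ZT9.65, with ratios of 2.77-fold and 2.18-fold.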

How the data were processed

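Raw gene counts and FPKM values of each library are the tables the authors deposited, 1 pair of tables per tissue. The submitters' processing notes name HTSeq 0.10.0, STAR 2.7.3a and, as builds, mm10 and GRCm38, with no role given. Neither the strand setting nor the annotation release is stated in the labels. Positions come from GENCODE M21 (GRCm38). The length implied by the authors' FPKM was within 1 base of the M21 gene model for 35 of the 43 members. Counts were tested with edgeR 4.0.16 in R 4.3.3 (TMM, filterByExpr by ZT group, quasi-likelihood fit of a 24 h cosine and sine, Benjamini-Hochberg over all genes tested). The peak-to-trough ratio is 2 times the fitted amplitude on the log2 scale, with a delta-method SE. Tissues were compared by the interaction of tissue and rhythm. Totals per library ran from 28.3 to 40.5 M counts in cortex, 11.7 to 43.4 in striatum, 29.2 to 50.01 in hypothalamus and 27.5 to 41.9 in the 76 liver libraries used. The same mice gave several tissues, so the fit with the mouse as a block was run too. Named were the 15 called liver members of largest ratio, the most abundant and the smallest-p member of each family, those of smallest p in the other comparisons, and up to 4 genes of each pathway list. Members and lists were chosen with earlier results of these data known. A gene of these families is not reported here. The code was tested on simulated data.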

Additional observations from a re-analysis of the deposited data

Results flagged for a closer look

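Of 128 groups of 4 to 10 libraries tested for a library far from the others, 10 held one, and chance flags about 1 in 20 groups. In liver these were Gstm4 at ZT15 (replicate 4, 18.4 CPM against 26.5 to 30.7), Ugt1a1 at ZT15 (replicate 3, 140 against 285 to 328), Ugt2b5 at ZT21 (replicate 2, 897 against at most 755), Ugt3a1 at ZT18 (replicate 5, 41.3 against 46.1 to 48.0) and Sult2a8 at ZT21 (replicate 3, 477 against 771 to 882). In cortex it was Gstt2 at ZT15 (replicate 1, 1.28 CPM against 1.60 to 1.75). In striatum, Sult1c2 stood at 3 CPM in ZT3 replicate 7 against 0 to 1.01, and at 5.81 CPM in ZT9 replicate 8 against 0.0288 to 0.990. In hypothalamus, Gstt2 stood at 7.24 CPM in ZT18 replicate 4 against 4.87 to 5.59, and at 7.79 CPM in ZT21 replicate 4 against 4.83 to 5.79. Those 2 hypothalamus libraries also had the lowest length indices of that tissue, -0.950 and -0.704. The part of the length index in these values was not tested.

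The rhythm differed between liver and cortex in 6 of 17 members, between liver and striatum in 9 of 21 and between liver and hypothalamus in 7 of 19, each by the interaction test. For Gstm4 the adjusted p by edgeR was 2.34e-32, 2.52e-17 and 1.3e-26 in that order. For Gstm7 it was 1.39e-06 against cortex and 4.32e-10 against hypothalamus, and for Gsta3 1.09e-06 against striatum.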

How the results depend on the processing

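The count of 25 rhythmic members in liver ran from 23 to 27 over the planned settings, with 25 under DESeq2's likelihood ratio test, and the 25 were kept in all of them except ZT as a factor (23) and the first cycle alone (22 of its 23). The count at 1.5-fold ran from 9 to 13. ZT as a factor gives no ratio and was not run for it. Settings chosen after seeing the data gave 28 without ZT6 replicate 7 and 30 with the length index as a covariate, each with all 25. Without a filter on low counts 16 members were called in cortex, 7 in striatum and 12 in hypothalamus. All members gained in this way had failed the filter, among them Ugt2b1 and Sult2a8, whose highest group median was 0 in each brain tissue. Of the main calls, 5 of 7 were kept in cortex, 1 of 2 in striatum and 3 of 3 in hypothalamus. With ZT as a factor 4 were called in cortex and 0 in striatum. In striatum the second cycle as a covariate gave 1, the length index 5, and leaving out single libraries at ZT15 or ZT18 1 to 3. The length index gave 6 members in hypothalamus and 5 with a 12 h component in liver. The cause was not tested. With the replicate number as a block, 25 members were called in liver, 6 in cortex, 1 in striatum, 4 in hypothalamus and 3 for the 12 h component. These numbers did not pair libraries: the median correlation of deviations was 0.0156 for equal and -0.00518 for other numbers, and 5 of 76 libraries were closest to their own. With the mouse as a block, the tissue differences numbered 7, 6 and 6 for cortex, striatum and hypothalamus. Of 564 values of named genes under other settings, 548 had the same status, called or not, as in the main fit, 10 lost the call and 6 gained it. A reversal of direction was looked for only in genes called in the main fit, and none was found. For genes not called in that fit, direction was not checked. Striatum is limited by its 2 libraries at ZT15.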
